A study of Mus musculus with 2 samples.

Results

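TRBV17, TRBV20, TRBV23, TRBV24, TRBV26 and TRBV30 are variable (V) genes of the mouse T cell receptor (TCR) beta chain. Their chains were taken as every TCR beta (TRB) chain of a WT and a Btla-/- library whose V gene was called as 1 of these 6. Chains of 5 of the 6 genes were found. They made up 435 of the 4141 TRB chains of the WT library, in 435 of its 4040 cells, and 590 of the 5181 TRB chains of the Btla-/- library, in 588 of its 5077 cells. TRBV24 was not called in either library.

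The V(D)J libraries came from CD4 single-positive (SP) thymocytes of C57BL/6J WT mice and of C57BL/6-Btla KO mice, which lack the co-inhibitory receptor BTLA, all aged 8 to 12 weeks. The cells were enriched by negative selection with a kit for naive CD4 T cells, and only TCR transcripts were amplified, so neither the cell type markers nor loss of Btla could be checked in these files. Each genotype is represented by 1 library, and the number of mice behind it is not given in the sources used here. Differences between the libraries were therefore not tested, and the intervals below, which are exact (Clopper-Pearson) 95% intervals, cover counting error only and not the spread between mice. Both libraries held 30 cell barcodes in common, which carried 2 of the WT and 3 of the Btla-/- chains described here.

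A TCR beta chain is made in the thymus when a V gene is joined to a diversity (D) and a joining (J) segment. The V gene is cut at its recombination signal sequence (RSS), which consists of a heptamer, a spacer and a nonamer, and bases are then lost from the ends and added between them. The first complementarity-determining region (CDR1) and CDR2 are encoded by the V gene alone, whereas CDR3 spans the junction and begins with the last codons of the V gene. A pseudogene can be joined, but one with an in-frame stop codon gives no complete receptor chain.

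All 6 genes lie on the forward strand of the Trb locus on chromosome 6 (GRCm38, GENCODE M21), upstream of the D and J segments. TRBV17 spans chr6:41163062-41163556 between TRBV16 and the pseudogene TRBV18. TRBV20 spans chr6:41188273-41188977 between TRBV19 and TRBV21. TRBV23 (chr6:41216073-41216526), TRBV24 (chr6:41218091-41218557) and TRBV26 (chr6:41227505-41227993) stand close together, with the pseudogene TRBV25 before TRBV26. TRBV30 (chr6:41281376-41281990) follows TRBV29 and is the last V gene before the D segments, at 251 kb from TRBD1, while TRBV17 is 369.6 kb away. TRBV31, which is annotated on the opposite strand, lies 24.8 kb on the other side. The V region before CDR3 was the same as the genome in every contig of the 5 genes, that is in 254 of 254 TRBV17, 314 of 314 TRBV20, 86 of 86 TRBV23, 344 of 344 TRBV26 and 27 of 27 TRBV30 contigs.

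The ends of the V exons show what each gene can give to CDR3. They are printed 5′ to 3′ on the forward strand of GRCm38, with the germline bases of CDR3, from the codon of the conserved cysteine to the end of the exon, in capitals.
TRBV17, chr6:41163519-41163556: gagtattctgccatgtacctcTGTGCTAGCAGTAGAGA
TRBV20, chr6:41188943-41188977: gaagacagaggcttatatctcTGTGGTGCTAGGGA
TRBV23, chr6:41216489-41216526: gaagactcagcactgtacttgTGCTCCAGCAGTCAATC
TRBV24, chr6:41218520-41218557: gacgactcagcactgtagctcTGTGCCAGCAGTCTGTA
TRBV26, chr6:41227956-41227993: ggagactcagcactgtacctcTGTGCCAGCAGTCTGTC
TRBV30, chr6:41281956-41281990: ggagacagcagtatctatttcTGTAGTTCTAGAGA
TRBV17, TRBV23, TRBV24 and TRBV26 end with 17 germline CDR3 bases, whereas TRBV20 and TRBV30 end with 14. The full codons read CASSR for TRBV17, CGAR for TRBV20, CSSSQ for TRBV23, CASSL for TRBV26 and CSSR for TRBV30, so 3 of the 5 genes found carry an arginine (R) at the germline end of CDR3.

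TRBV24 is annotated as a pseudogene, and 1 in-frame stop codon was found in its V exon. It is the TAG at chr6:41218535-41218537, 2 codons before the CDR3 cysteine, and is shown here in capitals within its surroundings.
TRBV24, chr6:41218520-41218549: gacgactcagcactgTAGctctgtgccagc
For the other 5 genes stop codons were sought only in the V region of productive contigs, where none could be found. The deposited contigs are all productive, so a chain with the TRBV24 stop could not be in them. The count of 0 for TRBV24 was fixed by that filter. For 0 of 4141 and 0 of 5181 chains the exact interval ends at 0.0890% (WT) and 0.0712% (Btla-/-). Because of the filter, these limits do not bound how often TRBV24 is joined.

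The 6 genes fall into groups by their sequence. The comparison covered the 21 single V genes with chains in these files and TRBV24. V genes without chains, among them TRBV21, TRBV22 and TRBV25, were not compared, so nearest means nearest among those compared. Over the region from framework 1 to framework 3, TRBV23 and TRBV26 were identical at 72.9% of aligned columns, TRBV23 and TRBV24 at 72.8% and TRBV24 and TRBV26 at 72.04%, and each of these 3 neighbours had its nearest relative among the other two. TRBV23 and TRBV26 share most of CDR1 (KGHTA and KGHPV) and of CDR2 (FQNQQP and FQNQEV). TRBV20 and TRBV30 were each other's nearest relative, at 59.5%, and both have a CDR2 of 7 residues (STVNSAI and ANEGSEA). The gene nearest to TRBV17 was TRBV10, at 57.3%, which is annotated as a pseudogene but had 497 productive chains in these files. The CDR1 of TRBV17 reads MNHDT and its CDR2 YYDKIL.

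The RSS behind each V exon is shown because it is what the recombinase reads. The heptamer and the nonamer are in capitals, with the spacer in lower case between them. Spacers of 22, 23 and 24 bases were tried for each gene, and the length with the best nonamer match is shown, which was 22 for TRBV23 and 23 for the other 5.
TRBV17, chr6:41163557-41163595: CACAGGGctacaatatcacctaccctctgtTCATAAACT
TRBV20, chr6:41188978-41189016: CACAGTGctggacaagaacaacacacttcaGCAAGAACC
TRBV23, chr6:41216527-41216564: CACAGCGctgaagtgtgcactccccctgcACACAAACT
TRBV24, chr6:41218558-41218596: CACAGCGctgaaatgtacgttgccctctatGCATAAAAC
TRBV26, chr6:41227994-41228032: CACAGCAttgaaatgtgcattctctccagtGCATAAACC
TRBV30, chr6:41281991-41282029: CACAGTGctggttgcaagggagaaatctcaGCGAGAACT
TRBV20 and TRBV30 matched the consensus heptamer CACAGTG in all 7 letters, as did 36.4% of the 22 V genes that are annotated as functional. TRBV17, TRBV23 and TRBV24 matched 6 letters and TRBV26 matched 5. Against the consensus nonamer ACAAAAACC, which 4.55% of functional V genes matched in full and 54.5% in at least 7 letters, TRBV20, TRBV23 and TRBV26 matched 7 of 9 letters, TRBV17 and TRBV24 matched 6 and TRBV30 matched 5. With the spacer held at 23 bases TRBV23 would match 4. Only the forward strand directly behind each exon was read, and these matches describe letters and not activity.

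Among the genes found, TRBV20, TRBV26 and TRBV17 were moderately used, TRBV23 was rare and TRBV30 was the least used V gene of the series. TRBV26 gave 137 chains (3.31%, 2.78 to 3.90%) in the WT and 207 chains (3.995%, 3.48 to 4.56%) in the Btla-/- library. TRBV20 gave 137 chains (3.31%) and 177 chains (3.42%, 2.94 to 3.95%). TRBV17 gave 116 chains (2.80%, 2.32 to 3.35%) and 138 chains (2.66%, 2.24 to 3.14%). The intervals of these 3 genes overlapped in the WT library, so their order there is not settled, and in the Btla-/- library the interval of TRBV26 lay above that of TRBV17. TRBV23 gave 32 chains (0.773%, 0.529 to 1.09%) and 54 chains (1.04%, 0.784 to 1.36%). TRBV30 gave 13 chains (0.314%, 0.167 to 0.536%) and 14 chains (0.270%, 0.148 to 0.453%). The intervals of TRBV23 and TRBV30 overlapped in the WT library and were apart in the Btla-/- library.

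**Figure D1:**
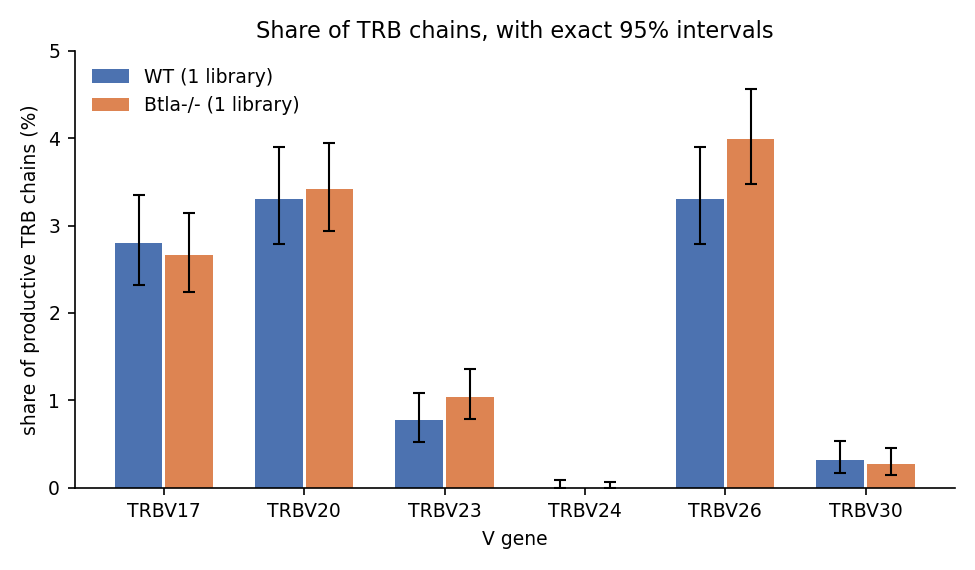
Share of each gene among all productive TRB chains of the WT (4141 chains) and Btla-/- (5181 chains) library, in percent, with exact 95% intervals as error bars. TRBV20, TRBV26 and TRBV17 stand between 2.66 and 3.995%, TRBV23 near 1% and TRBV30 near 0.3%, and the intervals of the 2 libraries overlap for each of them. TRBV24 stands at 0, which was fixed by the limit to productive contigs.

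The intervals of the WT and the Btla-/- library overlapped for each of the 5 genes found. They were apart for 0 of these 5, against 9.09% of all TRBV entries (2 of 22). The share was higher in the Btla-/- library for TRBV20, TRBV23 and TRBV26 and lower for TRBV17 and TRBV30, with differences from -0.138 to 0.687 percentage points. The 5 genes summed to 10.5% of WT chains, with an interval of 9.59 to 11.5%, and to 11.4% of Btla-/- chains, with an interval of 10.5 to 12.3%. Among the 22 TRBV entries of the files, 21 of which are single genes and 1 a joint call of a pair, TRBV30 ranked last and TRBV23 next to last in both libraries. Functional V genes upstream had other shares: TRBV29, just before TRBV30, held 4.11% and 4.38%, TRBV16, before TRBV17, held 5.24% and 6.29%, and TRBV19, before TRBV20, held 7.196% and 5.54%. TRBV21, which follows TRBV20 and is annotated as functional, and the pseudogene TRBV22 before TRBV23 had no chains in these files.

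The J segments of the beta chain lie in a TRBJ1 and a TRBJ2 cluster, each in front of its own constant gene. With each cell counted by itself, TRBV17 had a higher TRBJ2 share than the rest of the chains. The TRBJ2 share of its chains was 71.6% (62.4 to 79.5%) in the WT and 69.6% (61.2 to 77.1%) in the Btla-/- library, against 59.9% (58.3 to 61.4%) and 59.6% (58.2 to 61.0%) of all other TRB chains. Both libraries thus gave an interval above that of the rest, which was seen for no other TRBV entry (1 of 22, 4.55%), and TRBV17 ranked highest for TRBJ2 in each. In the Btla-/- library the margin was small (61.2% against 61.0%). There 26 of 138 TRBV17 cells carried a chain found in more than 1 cell, as described below, and the interval counts each cell by itself. That interval is therefore too narrow, and the separation from the rest in the Btla-/- library is not settled. An interval against the rest with each distinct chain counted once was not computed. TRBV26 stood at the lower end, with 50.4% (41.7 to 59.0%) in the WT library, the lowest of all entries, and 53.6% (46.6 to 60.6%) in the Btla-/- library. Its intervals overlapped those of the rest, in the WT library by a small margin. TRBV20 had 57.7% and 54.2%, TRBV23 had 53.1% (34.7 to 70.9%) and 68.5% (54.5 to 80.5%), and TRBV30 had 61.5% and 64.3%. No gene's TRBJ2 share had intervals apart between the libraries, either among the 5 or among all 22 entries (0%).

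**Figure D2:**
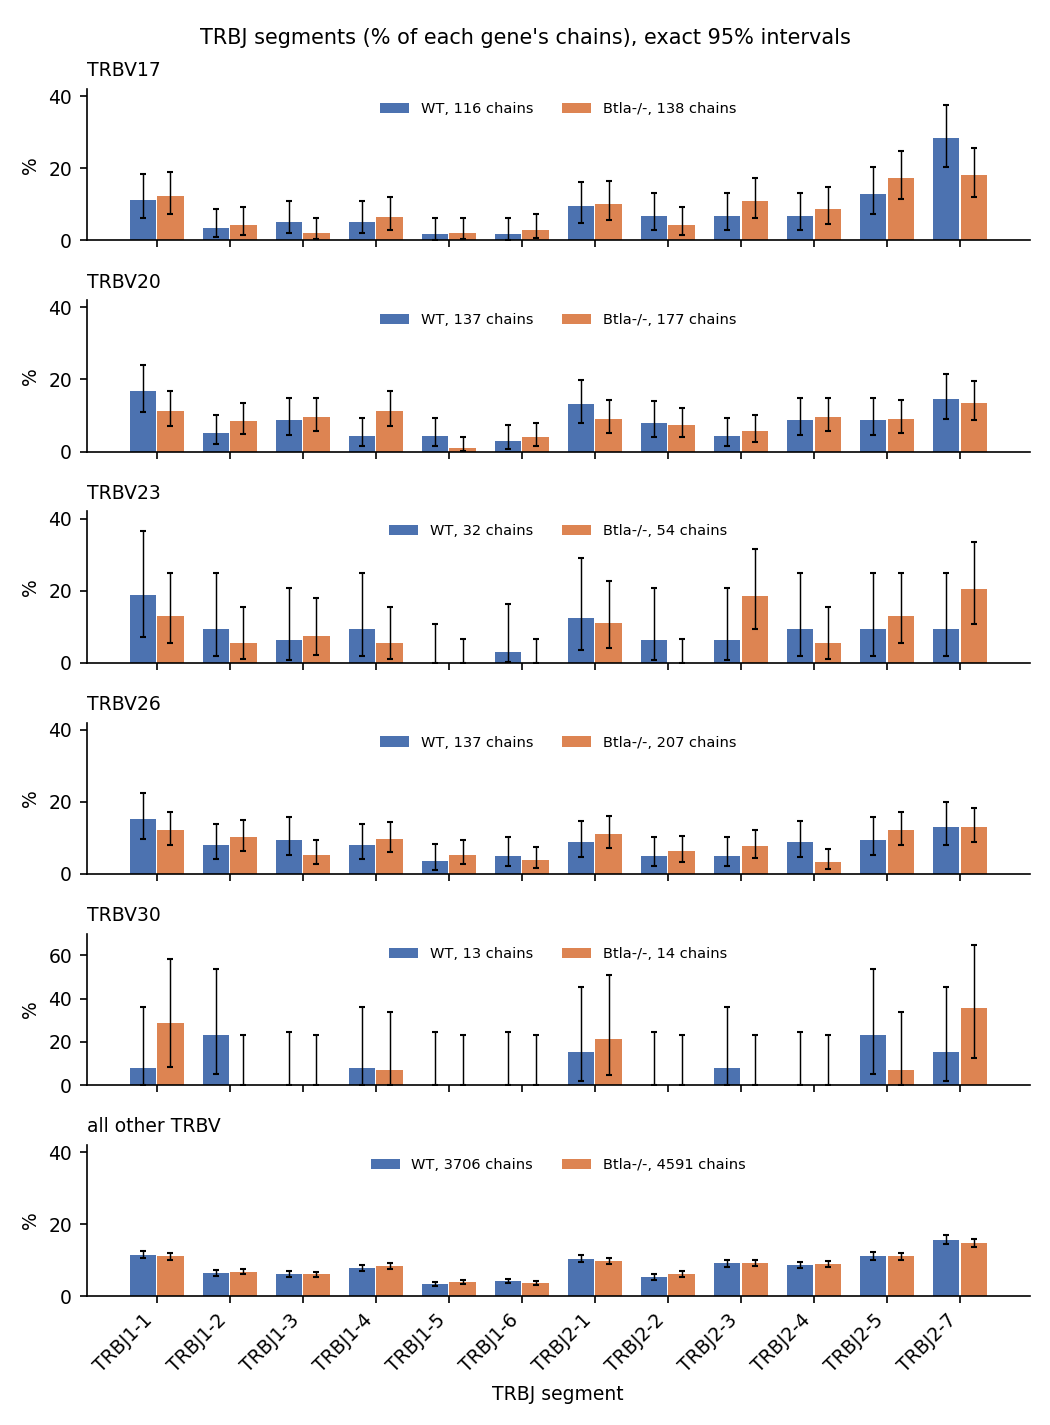
Percent of each gene's chains that carried each of the 12 TRBJ segments, in the WT and the Btla-/- library, with exact 95% intervals as error bars, and the same for all other TRBV chains; the TRBV30 panel has a taller axis. TRBJ2-7 stands out for TRBV17, above all in the WT library (28.4%), and the wide bars of TRBV23 and TRBV30 show how few chains they had.

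Of the 12 TRBJ segments of the series, TRBV17, TRBV20 and TRBV26 were joined to all 12, TRBV23 to 11 and TRBV30 to 7. Partners are ranked by the chains of both libraries together. The leading partner of TRBV17 was TRBJ2-7, with 33 chains (28.4%, 20.5 to 37.6%) in the WT and 25 chains (18.1%, 12.1 to 25.6%) in the Btla-/- library, followed by TRBJ2-5 with 15 and 24 chains and TRBJ1-1 with 13 and 17. Among all V genes outside the group TRBJ2-7 took 15.7% (14.6 to 16.9%) and 14.7% (13.7 to 15.8%), so only the WT interval of TRBV17 lay above it. TRBV20 was joined most to TRBJ2-7 (20 and 24 chains), TRBJ1-1 (23 and 20) and TRBJ2-1 (18 and 16), although in the Btla-/- library TRBJ1-4 with 20 chains and TRBJ1-3 and TRBJ2-4 with 17 each stood above TRBJ2-1. TRBV26 was joined most to TRBJ1-1 (21 and 25 chains), TRBJ2-7 (18 and 27) and TRBJ2-5 (13 and 25).

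TRBV23 was joined most to TRBJ2-7 (3 and 11 chains), TRBJ1-1 (6 and 7) and TRBJ2-3 (2 and 10). In its WT chains alone TRBJ1-1 led, followed by TRBJ2-1 with 4, and TRBJ2-7 was 1 of 5 segments with 3. TRBV23 had no chain with TRBJ1-5, where 0 of 32 and 0 of 54 chains had upper limits of 10.9% and 6.6% from the exact interval. V genes outside the group had 3.45% (WT) and 3.96% (Btla-/-) with TRBJ1-5, so this absence was not distinguishable from their shares. TRBV30 was joined most to TRBJ2-7 (2 and 5 chains), TRBJ1-1 (1 and 4) and TRBJ2-1 (2 and 3), whereas its WT chains alone were led by TRBJ1-2 and TRBJ2-5 with 3 of 13 each. It had no chain with TRBJ1-3, TRBJ1-5, TRBJ1-6, TRBJ2-2 or TRBJ2-4, and with 13 and 14 chains the upper limits were 24.7% and 23.2% for each, so these absences were not distinguishable from the shares that other V genes had.

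CDR3 began as the V gene encodes it in most chains. CASSR, the full germline start of TRBV17, opened 65 of 116 (56.0%) WT and 84 of 138 (60.9%) Btla-/- TRBV17 chains, but only 3.98% and 4.34% of all other TRB chains. CGAR opened 101 of 137 (73.7%) and 118 of 177 (66.7%) TRBV20 chains and 0 of 4004 and 0 of 5004 other chains. CSSSQ opened 24 of 32 (75%) and 35 of 54 (64.8%) TRBV23 chains and likewise 0 of the others. CASSL, which several V genes encode, opened 71 of 137 (51.8%) and 113 of 207 (54.6%) TRBV26 chains and 16.6% and 16.8% of other chains. CSSR opened 11 of 13 and 10 of 14 TRBV30 chains. The starts CGAR and CSSSQ therefore mark TRBV20 and TRBV23 in these libraries, since no other chain carried them, while the CASSL of TRBV26 does not mark its gene.

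At base level, the genes differed in how much of the V end was left. The count is of bases from the cysteine codon onwards that equal the germline, so an added base that happens to equal it is included. Among the 5 genes TRBV23 had the highest share with the whole end, 16 of 32 chains (50.0%, 31.9 to 68.1%) of the WT and 19 of 54 (35.2%, 22.7 to 49.4%) of the Btla-/- library. Its intervals overlapped those of TRBV20 in both libraries. It ranked 1 (WT) and 5 (Btla-/-) among 20 V genes, and TRBV2, outside the group, had 49.7% and 49.8%. TRBV20 kept all 14 bases in 34.3% (26.4 to 42.9%) and 29.9% (23.3 to 37.3%) of chains, and TRBV17 all 17 in 17.2% (10.9 to 25.4%) and 19.6% (13.3 to 27.2%). TRBV26, the near relative of TRBV23, kept all 17 in 10.9% (6.26 to 17.4%) and 10.1% (6.39 to 15.1%), and its intervals lay below those of TRBV23 in both libraries. The mean loss was 3.53 and 3.42 bases for TRBV26 against 1.88 and 2.11 for TRBV23. TRBV30 kept all 14 in 5 of 13 WT and 1 of 14 Btla-/- chains, with overlapping intervals (13.9 to 68.4% and 0.18 to 33.9%).

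CDR3s of TRBV20 and TRBV30 were short. Length is given in amino acids and counts the conserved cysteine and phenylalanine at its ends. TRBV20 had a mean of 13.4 in both libraries (SD over chains 1.53 in 137 WT and 1.40 in 177 Btla-/- chains), and TRBV30 had 13.6 and 12.7 (SD 1.45 and 1.27, 13 and 14 chains), against 14.2 and 14.3 for chains of all V genes outside the group. Of 22 entries, TRBV20 and TRBV30 took the 2 lowest means in each library. TRBV17 had 14.2 and 14.6 (SD 1.40 and 1.70), TRBV23 had 14.5 and 14.6, and TRBV26 had 13.93 and 13.99. The most frequent length was 13 for TRBV20 and 14 for TRBV17, TRBV26 and TRBV30 in both libraries. TRBV23 had most WT chains at 14 (8 of 32, against 6 at 15) and most Btla-/- chains at 15 (20 of 54). Its intervals at 15 residues overlapped (7.21 to 36.4% in WT and 24.3 to 51.3% in Btla-/- chains), so a shift between the libraries is not settled. SDs over chains describe the spread within a library and are not errors of the mean between mice.

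**Figure D3:**
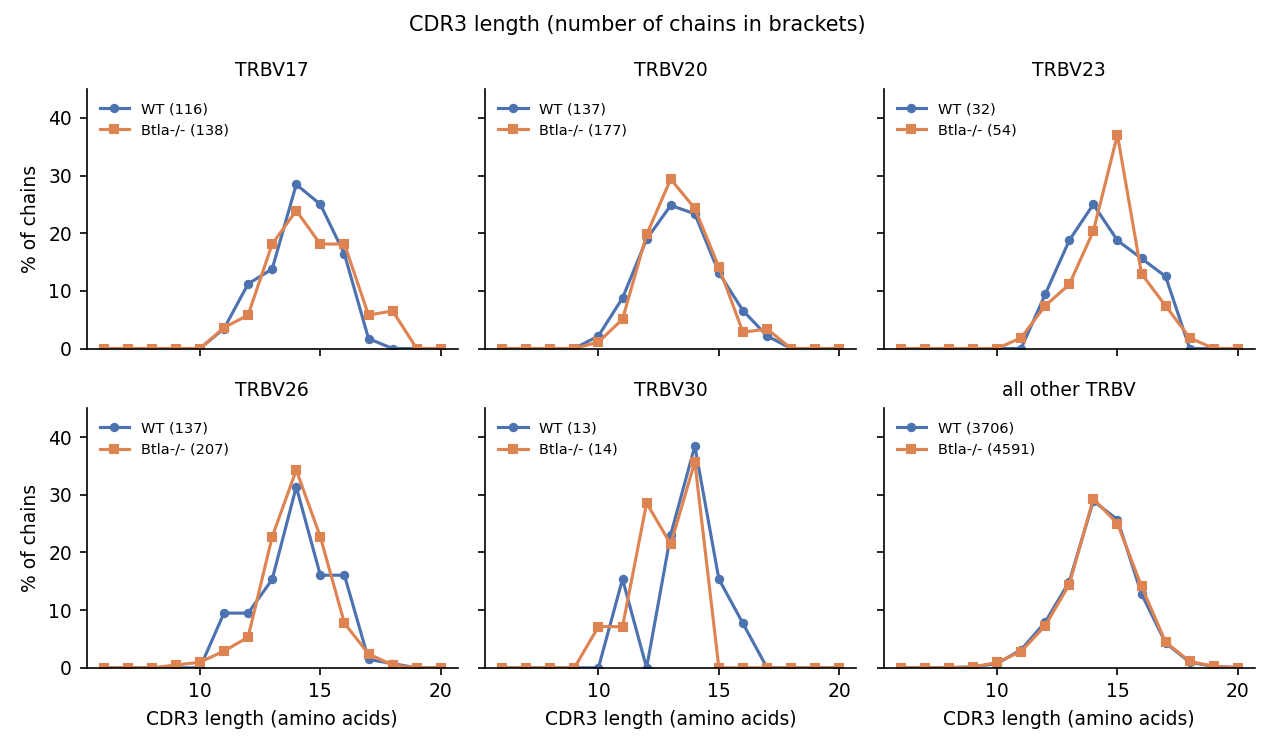
Percent of chains at each CDR3 length (amino acids) per gene in the WT and the Btla-/- library, with the number of chains in brackets, and the same for all other TRBV chains. The TRBV20 curve peaks at 13, against 14 for the other V genes, and TRBV17 has a shoulder at 17 and 18 residues in the Btla-/- library only.

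CDR3 was split into its germline V bases and the bases after them. TRBV20 chains kept a mean of 11.9 and 11.7 germline bases, while the 15 genes outside the group that could be matched to the genome kept more. The part after the germline bases was 28.1 and 28.6 bases long in TRBV20, close to the 28.3 and 28.4 bases of TRBV26 and the 28.4 and 28.9 bases of TRBV23. Among 20 V genes the mean of this later part ranked last for TRBV20 and 19th for TRBV26 in the WT library, and 16th and 19th in the Btla-/- library. TRBV17 had 28.3 bases (SD over chains 4.12) in the WT and 29.4 (SD 4.75) in the Btla-/- library, rank 18 and rank 6. These ranks separate close values, since the WT means of the 20 genes ran from 28.1 (TRBV20) to 29.7 (TRBV12-2). Recurrent chains were counted once per cell in these means, and the difference between the libraries was not tested.

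**Figure D4:**
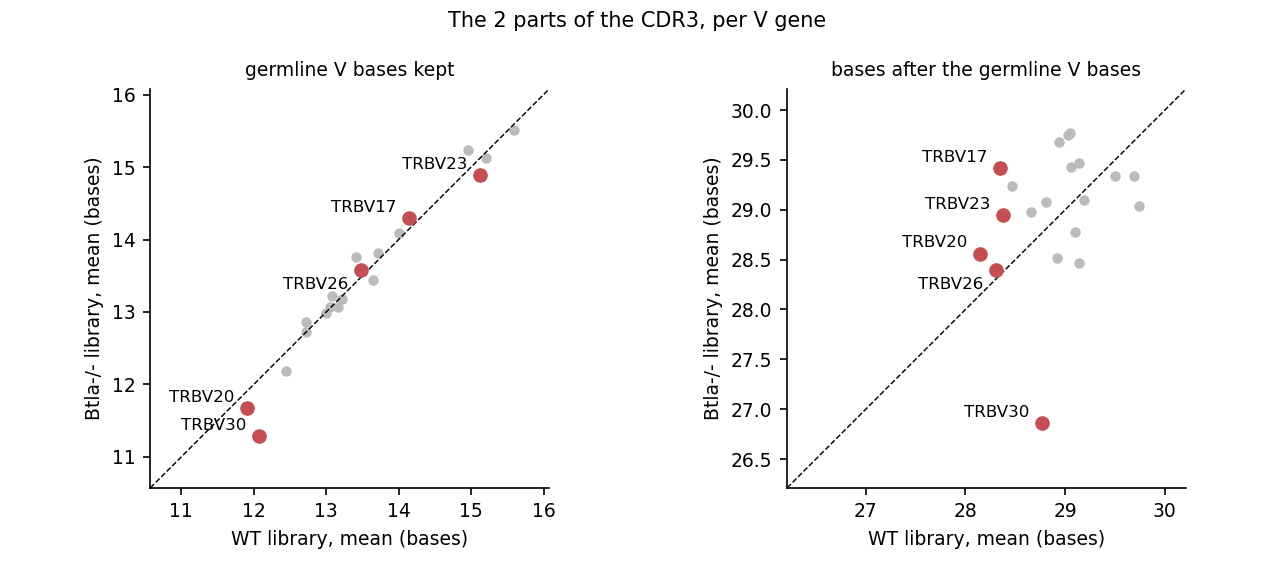
Mean number of germline V bases kept in CDR3 (left) and mean number of CDR3 bases after them (right) in the WT library (horizontal axis) and the Btla-/- library (vertical axis). Red points are TRBV17, TRBV20, TRBV23, TRBV26 and TRBV30, grey points the other 15 V genes, and the dashed line marks equal values. TRBV20 and TRBV30 keep the fewest germline bases, 11.3 to 12.1, and have only 14 to keep, fewer than the other genes.

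TRBV17 had 9 CDR3s of 18 residues in the Btla-/- library (6.52%, 3.02 to 12.0%) and 0 of 116 in the WT library (upper limit 3.13%). The 9 chains were 6 distinct sequences with 6 J segments, because some of them recurred in more than 1 cell, as described below. The intervals of the 2 libraries overlapped, by a small margin.

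TRBV17 and TRBV20 had a larger share of CDR3s with a net positive charge, counted as lysine and arginine minus aspartate and glutamate, than other V genes. In TRBV17 the WT share was 21.6% (14.5 to 30.1%) and the Btla-/- share 21.7% (15.2 to 29.6%), against 11.5% and 11.7% of all other TRB chains. In TRBV20 they were 23.4% (16.6 to 31.3%) and 29.9% (23.3 to 37.3%), against 11.4% in both libraries. TRBV17 and TRBV20 had intervals above the rest in both libraries, as did 13.6% of all entries (3 of 22), the third being TRBV19 with 17.4% and 17.8%. In either direction 27.3% of the entries lay apart from the rest in both. TRBV30 had 3 such chains of 13 and 6 of 14, and its interval was above the rest only in the Btla-/- library. TRBV26 had 15.3% and 14.01%, and TRBV23 had 21.9% (9.28 to 40.0%) and 14.8% (6.62 to 27.1%). Whether germline arginines account for these shares was not tested. Charge was looked at after other values of these genes were known, and no share of positive CDR3s had intervals apart between the libraries.

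UMIs, the molecular identifiers that count the captured transcripts of a chain, differed between the genes. TRBV20 chains had few, with a median of 8 (quartiles 5 and 16) in the WT and 7 (5 and 13) in the Btla-/- library, rank 21 and 20 of 22 entries. TRBV17 had many, with a median of 17 (9.75 and 31) and 12 (8 and 21), rank 3 and 4. TRBV23 had 14.5 and 10.5, TRBV26 had 11 and 8, and TRBV30 had 16 and 9.5, whereas the chains of V genes outside the group had 13 and 10. The Btla-/- library was the shallower for each of the 5 genes, as it was for all TRB chains together, whose median was 13 UMIs (WT) and 10 UMIs (Btla-/-). UMI counts of a contig depend on how well its V gene is amplified and assembled as well as on transcript level, and these were not told apart.

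A minority of the cells also gave a TCR alpha (TRA) chain. Among the cells of the 5 genes, the share with a TRA chain was 39.8% (35.1 to 44.5%) in 435 WT cells and 37.6% (33.7 to 41.6%) in 588 Btla-/- cells, against 42.3% and 34.7% of cells with other TRBV chains. By gene the share ran from 36.5% (TRBV26) to 46.2% (TRBV30) in the WT and from 28.6% (TRBV30) to 40.7% (TRBV20) in the Btla-/- library. Counted only over contigs with at least 3 UMIs, the share for the 5 genes was 25.2% and 21.03%. Intervals were apart between the libraries for 0 of the 5 genes and for 9.09% of all entries.

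TRAV partners were spread widely. V genes of the alpha chain are given as subgroups, which pool all genes with the same number after TRAV. TRBV17 was paired most with TRAV7 (8 of 54 WT and 13 of 53 Btla-/- TRA chains), TRAV6 (10 and 6) and TRAV13 (9 and 7). TRBV20 was paired most with TRAV13 (12 of 60 and 8 of 79), TRAV7 (4 and 16) and TRAV6 (8 and 10). For the pair of TRBV20 with TRAV7 the shares were 6.67% (1.85 to 16.2%) and 20.3% (12.0 to 30.8%), with overlapping intervals.

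TRBV26 was paired most with TRAV7 (12 of 56 and 15 of 86), TRAV6 (10 and 10) and TRAV4 (7 and 11). TRBV23 was paired most with TRAV7 (5 of 15 and 3 of 21) and TRAV6 (1 and 5), and TRBV30 with TRAV12 (2 of 7 and 1 of 4) and TRAV6 (1 and 2). TRAV6 and TRAV7 were also the most frequent partners of V genes outside the group, at 16.2% and 12.3% of WT and 15.7% and 14.5% of Btla-/- TRA chains. The alpha chain of invariant NKT cells is TRAV11 joined to TRAJ18. It was found in 0 of 173 WT and 0 of 221 Btla-/- cells of the 5 genes that had a TRA chain. Among cells with other TRBV chains and a TRA chain it was found in 8 of 1519 WT and 9 of 1550 Btla-/- cells. These counts are too small to set the 5 genes apart.

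More than 1 TRB chain was found in 19 of the 435 WT (4.37%, 2.65 to 6.74%) and 38 of the 588 Btla-/- cells (6.46%, 4.61 to 8.76%). TRBV17 had 11 such cells of 116 in the WT library (9.48%, 4.83 to 16.3%), in which its chain had the most UMIs of the cell 9 times, and 6 of 138 (4.35%) in the Btla-/- library. TRBV20 had 5 of 137 (3.65%) and 14 of 177 (7.91%), and TRBV26 had 2 of 137 (1.46%) and 14 of 207 (6.76%). In the Btla-/- library the TRBV20 and TRBV26 chain each had the fewest UMIs of the cell, ties included, in 11 of 14 cases. A cell with several TRB chains is counted under each of its V genes. Over the 17 entries outside the group the share ran from 4.17 to 9.64% in WT and from 3.08 to 8.31% in Btla-/- cells. The origin of the additional chains was not tested.

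Identical TRB chains, with the same V gene, J segment and CDR3 bases, recurred in several cells of a library. This was most frequent in TRBV17 of the Btla-/- library, where 12 chains were found in 26 of 138 cells (18.8%, 12.7 to 26.4%), the highest share of all 22 entries in that library. In the WT library 2 TRBV17 chains were found in 5 of 116 cells (4.31%, 1.41 to 9.77%). The intervals did not overlap, which held for 9.09% of all entries (2 of 22), the other being TRBV14. Cells with a recurrent chain come in sets of at least 2, whereas these intervals count each cell by itself, so they are too narrow. Their separation therefore does not show that the libraries differ. Counted by distinct chain, 2 of 113 WT and 12 of 124 Btla-/- TRBV17 chains recurred, and intervals for these were not computed. No chain of the 5 genes was in more than 3 cells.

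**Figure D5:**
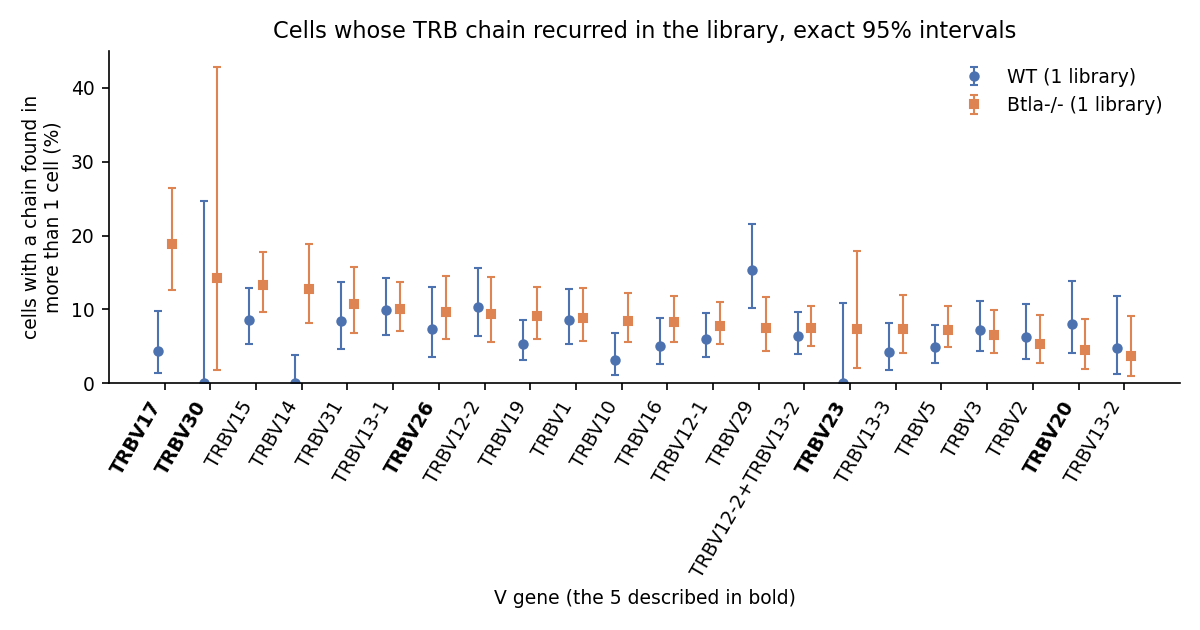
Percent of cells of each TRBV entry whose chain, with the same V gene, J segment and CDR3 bases, was found in more than 1 cell of the library, with exact 95% intervals, ordered by the value in the Btla-/- library. TRBV17 stands first in the Btla-/- library at 18.8% and at 4.31% in the WT library. The intervals count each cell by itself, although recurrent chains come in sets of cells, so they are too narrow.

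The recurrent chains found in 3 cells each are shown with the germline V bases of CDR3 in capitals.
TRBV17 with TRBJ2-4, WT: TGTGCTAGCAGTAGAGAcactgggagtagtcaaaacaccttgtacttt
TRBV17 with TRBJ1-4, Btla-/-: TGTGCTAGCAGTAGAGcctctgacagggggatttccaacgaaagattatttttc
TRBV17 with TRBJ2-4, Btla-/-: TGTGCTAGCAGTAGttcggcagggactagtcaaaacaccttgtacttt
TRBV20 with TRBJ2-5, WT: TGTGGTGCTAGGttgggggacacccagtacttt
TRBV26 with TRBJ1-3, WT: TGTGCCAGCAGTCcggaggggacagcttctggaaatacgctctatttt
TRBV26 with TRBJ2-1, WT: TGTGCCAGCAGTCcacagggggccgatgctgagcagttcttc
The TRBV17 chain with TRBJ1-4 is 1 of the CDR3s of 18 residues. Of the 12 recurrent TRBV17 chains of the Btla-/- library, 4 had a TRA chain in 2 or more of their cells, and in all 4 the cells shared a TRA chain. The other 8 could not be checked in this way. Leaving out barcodes found in both libraries gave 4.31% and 17.6%, chains with at least 3 UMIs gave 2.65% and 18.05%, and cells with exactly 1 TRB chain gave 4.76% and 18.2%, with intervals apart each time. In cells with a TRA chain the values were 4.26% (2 of 47) and 17.4% (8 of 46), and the intervals overlapped. These settings were chosen after the difference had been seen, and all of them count cells and not distinct chains. Their intervals are therefore too narrow as well. The origin of the recurrent chains was not tested.

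In the V genes outside the group the WT share of cells with a recurrent chain was 7.10% (6.28 to 7.99%) and the Btla-/- share 8.74% (7.93 to 9.61%). TRBV20 had 8.03% (11 of 137) and 4.52% (8 of 177), and TRBV26 had 7.30% (10 of 137) and 9.66% (20 of 207). TRBV23 had 0 of 32 and 4 of 54, and TRBV30 had 0 of 13 and 2 of 14.

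Few CDR3s were common to both genotypes. The 5 genes had 419 distinct CDR3 amino acid sequences in WT cells and 559 in Btla-/- cells, and 3 were in both, which is 0.716% of the WT and 0.537% of the Btla-/- sequences. For V genes outside the group it was 15 of 3550 (0.423%) and of 4387 (0.342%). The 3 belonged to TRBV20 (2) and TRBV26 (1). A TRBV20 and a TRBV26 pair, each of 12 residues, are shown with the germline V bases in capitals.
TRBV20 with TRBJ1-1, 12 residues, WT: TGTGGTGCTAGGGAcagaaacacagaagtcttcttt
TRBV20 with TRBJ1-1, 12 residues, Btla-/-: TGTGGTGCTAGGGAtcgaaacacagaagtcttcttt
TRBV26 with TRBJ2-7, 12 residues, WT: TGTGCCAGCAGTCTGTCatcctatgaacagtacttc
TRBV26 with TRBJ2-7, 12 residues, Btla-/-: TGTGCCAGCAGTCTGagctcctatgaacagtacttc
The members of each pair encode the same residues with different bases. They differed at 2 of 36 bases in the TRBV20 pair and at 3 of 36 in the TRBV26 pair. No CDR3 base sequence of the 5 genes was in both libraries, and 3 of the other V genes were. The other V genes had 3559 distinct WT and 4393 distinct Btla-/- chains, against 420 and 559 for the 5 genes. The counts of 0 and 3 are therefore too small to show a difference between the 5 genes and the others. Each of the 4 chains shown was found in 1 cell, with 3 to 19 UMIs.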

How the data were processed

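V(D)J libraries of CD4 SP thymocytes, 1 WT and 1 Btla-/-, were analysed. Per the labels and the submitters' processing notes, the authors assembled and annotated contigs with Cell Ranger 7.2.0 against GRCm38, and the deposited contig tables hold the UMI and read counts of every contig, not normalised, with only full-length, productive contigs of called cells. The WT and Btla-/- tables hold 6003 and 7101 contigs, with 72650 and 69417 TRB UMIs. Deposited tables of V gene percentages, clone proportions and CDR3 lengths were not used.

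All TRB contigs were counted, and droplets with more than 1 cell were not removed. Shares are of all TRB chains of a library, with exact 95% intervals from SciPy 1.17.1 under Python 3.11.15 (pandas 2.3.3, numpy 2.4.6). Intervals are apart when they do not overlap, and no test between genotypes was made. V exons, RSSs and the stop codon of TRBV24 were read from the GRCm38 genome with GENCODE M21. The RSS was read directly behind the exon, with the spacer of 22, 23 or 24 bases that gave the best nonamer match (23 on ties). Stop codons of the other 5 genes were sought in the most frequent V region of their contigs. Identity was computed with Biopython 1.88 (global alignment, match 2, mismatch -1, gap opening -5, extension -1) among V genes with chains and TRBV24. The interval and trimming steps were tested on simulated data.

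The genes named were the 6 genes, the 3 TRBJ segments and TRAV subgroups most often joined or paired with each, TRBJ segments with no chain, the nearest V gene and the neighbours in the locus. The genes and lists were chosen with earlier results of these data known. Charge, germline bases kept, RSSs and recurrent chains were added after values were seen. Alternatives were chains with at least 3 UMIs, cells with exactly 1 TRB chain, each distinct chain once, barcodes of both libraries left out, 1 TRB chain per cell and cells with both chains. A TRBV20 CDR3 found in both libraries is not reported here.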

Additional observations from a re-analysis of the deposited data

How the results depend on the processing

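The share, mean CDR3 length, TRBJ2 share and TRA share of each gene and of the 5 together were recomputed under 6 alternatives, which gave 138 values. Of these 129 stayed within the counting interval of the difference between the libraries, or for length within 0.2 residues, 9 moved further and 0 had intervals apart. The sign of the difference, Btla-/- minus WT, changed in 7, of which 2 were shares of TRB chains, 4 TRBJ2 shares and 1 a TRA share. In cells with both TRA and TRB chains the difference in TRBV26 share rose from 0.687 to 1.49 percentage points (2.77% and 4.26%), and the difference in TRBJ2 share of the 5 genes rose from 0.302 to 7.87 percentage points (54.9% and 62.8%). The cause was not tested, and fewer chains were counted. The other 7 values that moved were mean CDR3 lengths of TRBV17, TRBV20, TRBV23 and TRBV30. No paired analysis was possible because each genotype has 1 library and the labels give no replicate numbers. Depth limits TRBV23 and TRBV30 most, with 13 to 54 chains a library.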
